A study of Mus musculus with 13 samples.

Results

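C/D box small nucleolar RNAs (snoRNAs) were read from a gene-level table of 2 RNA-seq libraries of C2C12, an established line of mouse myoblasts able to fuse into myotubes in low serum. The rows were taken by name, as those starting with Snord, and number 69 of 23236. One library is labelled siNC and the other siLinc-Yy1. The names are read here as a negative-control siRNA and a knockdown of the lincRNA Linc-Yy1, which lies beside the gene of the transcription factor Yy1; the labels state no dose, time or siRNA sequence. Both are labelled as myoblasts, in growth medium with 10% serum as the labels describe it, and both were made from poly(A)-selected RNA. The other 11 of the 13 samples of the series, 2 RNA-seq and 9 ChIP-seq libraries, were not analysed here.

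C/D box snoRNAs are short guide RNAs of the nucleolus. Each pairs with a stretch of ribosomal or spliceosomal RNA and places the methyltransferase fibrillarin on the base whose ribose is to be methylated. A few act in cleavage of the ribosomal precursor instead, and the imprinted ones of the Snrpn region are best known from brain. In mammals most are cut out of introns of a host gene, often a gene for a ribosomal protein, a translation factor or a nucleolar protein, or a noncoding gene that serves mainly as a host. The mature RNA carries no poly(A) tail, so a poly(A)-selected library holds only what came through that selection.

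The comparison asks how the rows differed between myoblasts in which Linc-Yy1 was targeted and those given the control. With 1 library per condition nothing replicates a difference, so the values below describe the pair of libraries, not the conditions, and no test across them was made. Levels are in FPKM (fragments scaled to transcript length and to the mapped fragments), and pairs of values give the siNC library first. In bulk RNA, fewer cells of a kind and less RNA per cell cannot be told apart. The row of the target itself, lincYy1, stood at 0.360 FPKM against 0.227 in siLinc-Yy1, too low to check the label, and Yy1 stood at 28.6 and 30.9 FPKM. The myoblast markers were present in both libraries: the 6 on the list (Myod1, Myf5, Des, Cdh15, Vim and Itga7) ranged from 18.8 to 748.9 FPKM in siNC and from 21.9 to 1366 FPKM in siLinc-Yy1. The 5 myotube markers summed to 150.4 and 189.8 FPKM, and the 8 markers of endothelial cells, leukocytes, adipocytes and neurons to 6.54 and 6.46 FPKM.

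Most members sit inside other genes. Of the 69 rows, 63 share a locus with at least 1 other row, and only Snord104, Snord89, Snord64, Snord116, Snord116l1 and Snord116l2 stand alone. For 61 rows, 1 gene of the shared locus spans the snoRNA in RefSeq's annotation of assembly GRCm38.p6, in which all 69 names were found, and that gene is called the host below. There are 42 hosts: 20 rows lie in ribosomal protein genes, 27 in other protein genes and 14 in noncoding RNA genes. For Snord7 and Snord91a the host was not resolved. Clusters of 2 or more members occupy 14 loci and take in 33 rows, the fullest being Rpl13a with Snord32a, Snord33, Snord34 and Snord35a.

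Genes of this kind of host often begin transcription in a run of pyrimidines, the 5′ terminal oligopyrimidine tract that ties translation of ribosomal protein mRNAs to growth. The stretches from 30 bases before to 50 bases after the annotated start are printed for 7 of the hosts whose snoRNAs are described below (RefSeq, GRCm38.p6). Capitals mark the longest run of at least 8 C or T bases on the transcribed strand, and Gas5, whose downstream start is given, has none in this window. Other hosts described below, among them 1500012F01Rik, Nop56, Rps3 and Gnl3, had no such run and are not printed. The printed stretches therefore do not stand for the hosts as a set.
Rpl13a, chr7:45128696-45128775 (- strand): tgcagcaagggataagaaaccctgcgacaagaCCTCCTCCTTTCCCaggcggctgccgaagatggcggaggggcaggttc
Rps12, chr10:23787160-23787239 (- strand): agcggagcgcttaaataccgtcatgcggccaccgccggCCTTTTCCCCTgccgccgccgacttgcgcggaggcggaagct
Gnb2l1, chr11:48800330-48800409 (+ strand): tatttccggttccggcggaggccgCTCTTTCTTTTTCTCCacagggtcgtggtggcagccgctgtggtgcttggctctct
Snhg1, chr19:8723457-8723536 (+ strand): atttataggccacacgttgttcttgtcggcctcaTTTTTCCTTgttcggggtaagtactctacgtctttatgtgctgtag
2410006H16Rik, chr11:62602847-62602926 (+ strand): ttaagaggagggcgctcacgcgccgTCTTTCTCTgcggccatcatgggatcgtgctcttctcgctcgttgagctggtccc
Snhg12, chr4:132308648-132308727 (+ strand): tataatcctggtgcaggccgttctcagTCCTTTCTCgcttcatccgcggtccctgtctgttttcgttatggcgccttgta
Gas5, chr1:161035136-161035215 (+ strand): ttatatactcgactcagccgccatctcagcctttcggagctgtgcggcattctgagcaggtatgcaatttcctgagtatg
Such a run was found for 17 of the 34 hosts with an entry (50%) and for 32.3% of 27025 genes in windows of the same 80 bases. Among ribosomal protein hosts it was found for 5 of 7. A match is a description of these letters and not a mapped start site.

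The FPKM of so short a row rests on few fragments, and the worth of 1 fragment depends strongly on length. Low values of microRNA rows alone at their locus were taken as the worth of 1 fragment at their length. In places such a value recurs, as in Mir27b and Mir3960 in siNC, and in others it rests on a single row. At 73 bases, Mir27b stood at 3.77 FPKM in siNC, and Mir5106, of the same length, at 5.72 FPKM in siLinc-Yy1. At 82 bases, Mir320 stood at 1.25 and 1.91 FPKM, and at 100 bases Mir674 stood at 0.677 FPKM in siNC. A few rows lay below this ladder, such as Mir290 at 83 bases with 0.402 FPKM in siNC, so it does not hold for every row. Levels are therefore not compared between snoRNAs here, and each row is read only against itself. The ratio of siLinc-Yy1 over siNC at equal fragments was also not 1. Of 159 Snord, Snora, Scarna and Mir rows above 0 in both libraries, 16 lay within 0.01 (log2) of a ratio of 1.519, the most frequent value. The most frequent ratio of odorant receptor rows, which are longer and barely transcribed here, was 1.395, seen in 57 of 327 rows. An FPKM ratio of 1.519 for a short row is therefore read as the same number of fragments in both libraries, before any allowance for their depth, which the files do not give directly. This step ratio was read from rows of about the length of a C/D snoRNA and may not hold for longer members.

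**Figure D1:**
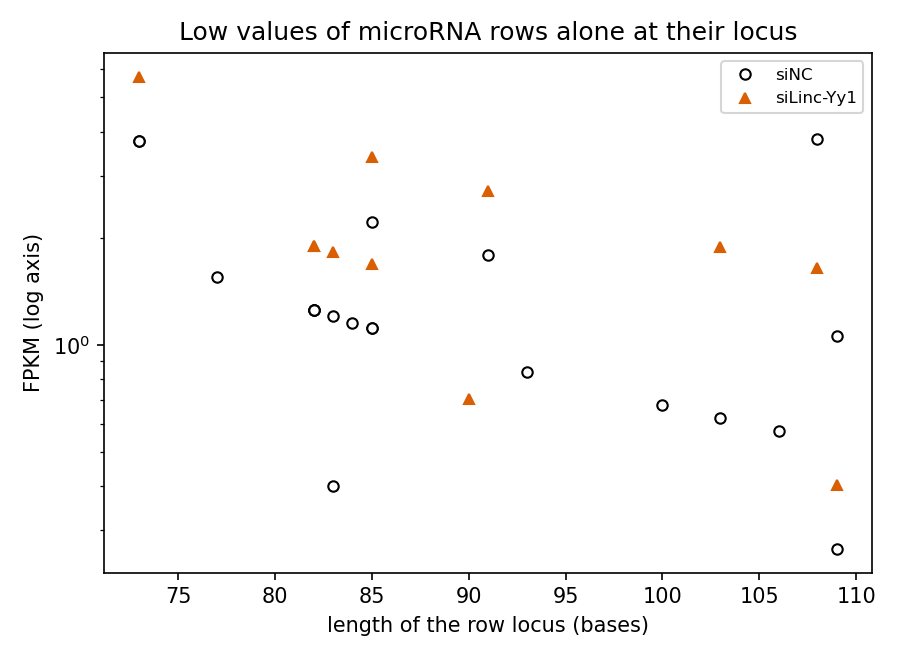
FPKM (log axis) against the length of the locus in bases for 24 microRNA rows alone at their locus with values below 6 FPKM, open circles for siNC and triangles for siLinc-Yy1. Most low siNC values fall along a ladder with length, from 3.77 FPKM at 73 bases to 0.677 FPKM at 100 bases, with rows above and below it, such as Mir290 at 0.402 FPKM.

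Across the members, FPKM was higher in siLinc-Yy1. Of the 69 rows, 12 were listed at 0 in both libraries, 2 at 0 in siNC alone and 6 at 0 in siLinc-Yy1 alone. An exact 0 can be a failed estimate, so no fold was taken from these 20. Of the 49 rows above 0 in both, 46 reached a mean of 1 FPKM and 3, the Snord116 rows, did not. Of the 46, 44 were higher in siLinc-Yy1 and 2 were lower. Outside the Snord, Snora, Scarna and Mir rows, 5195 of 11573 rows past the same filter were higher. By the size rule, at least 2-fold on log2(FPKM + 1), 32 of the 46 members were higher and 0 lower, against 1.3% higher and 0.0427% lower of all 11722 rows that met the same filter. The median log2 ratio was 1.27 for the members, with a range of -0.86 to 2.55, and -0.02 for all rows. Equal fragments already give a short row a ratio of 1.519. With that ratio divided out, 37 of the 46 had more in siLinc-Yy1, 4 had the same number within 1% and 5 had fewer. At least 2 times the fragments were reached by 15. The 4, Snord87, Snord88c, Snord92 and Snord123, were among the rows from which that ratio was read. Their equality therefore follows from its definition. No count of more or fewer fragments was made over all rows. The share stayed high among rows of higher FPKM before any adjustment for level. Of the 38 members with a mean of at least 10 FPKM, 29 were at least 2-fold higher, against 1.69% of the 6985 rows at that level, and of the 13 with at least 100 FPKM, 12 were, against 5.32% of 733. The median log2 ratio of those 733 rows was itself 0.35. Rows are matched by FPKM only, here and in the running median below. At a given FPKM a short row rests on fewer fragments than a longer one, so counting error is not matched. With a running median of all rows along mean FPKM subtracted, the log2 ratios of the highest members fell. Snord49b then stood at 1.05, Snord49a at 0.99, Snord100 at 0.92, Snord104 at 1.36 and Snord32a at 1.14.

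The size of the difference depended on the scaling. With both libraries rescaled to the same summed FPKM, 21 members were at least 2-fold higher and 2 lower, with a median of 0.94. Under the same rescaling 80 of all rows were higher and 23 lower, and their median was -0.31. With the whole short-row step divided out, 15 were at least 2-fold higher and 2 lower, with a median of 0.67. Dividing every row by that step left 43 of all rows higher and 80 lower, with a median of -0.55, so the table as a whole then leaned to lower values.

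**Figure D2:**
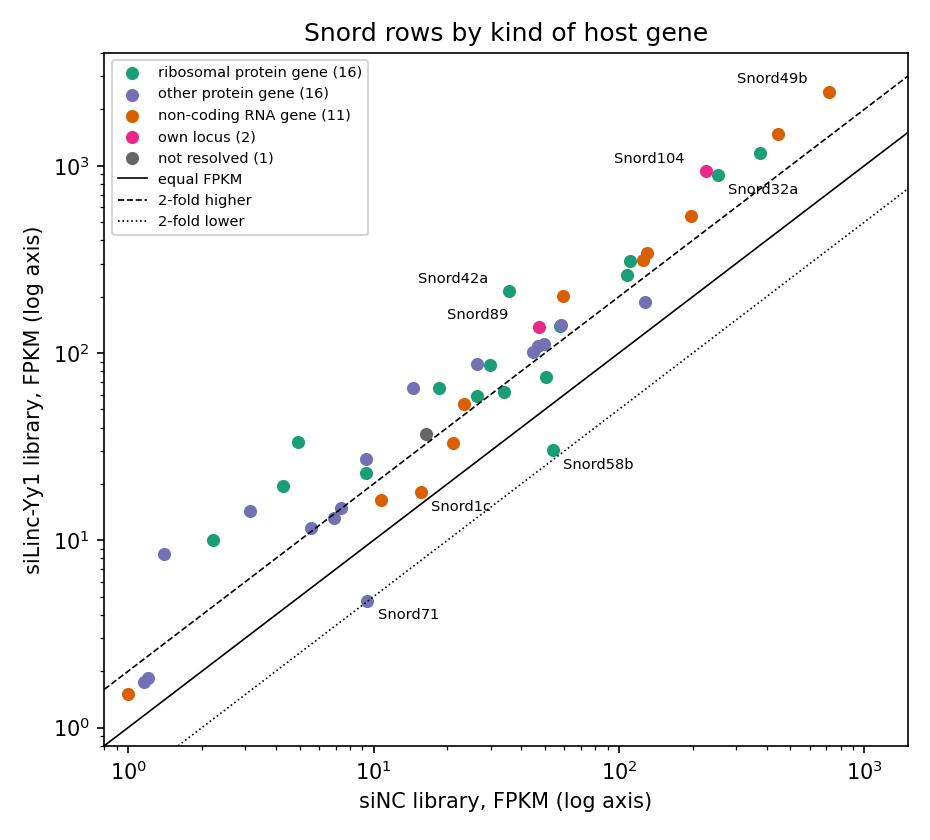
FPKM in siLinc-Yy1 against FPKM in siNC, both on log axes, for the 46 Snord rows past the filter, 1 point a row, coloured by the kind of host gene, with lines at equal FPKM and at 2-fold higher and lower. All but Snord71 and Snord58b lie above the line of equal FPKM, and every kind of host has points beyond the 2-fold line.

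Snord104 has a locus of its own, chr11:106362304-106362377 (mm9, as the file gives it), which no other row shares. Hosts were sought only among rows of the same locus, so whether another gene spans it was not examined. It guides methylation of 28S ribosomal RNA. It measured 226.3 and 932.7 FPKM, a ratio of 4.12. At its 73 bases these values are 60 and 163 times the worth of 1 fragment. In siLinc-Yy1 that worth is the value of Mir5106, assumed to hold 1 fragment. The counting interval (95%, exact binomial) of the FPKM ratio was 3.05 to 5.64, and it covers counting error only. In the authors' deposited table it was called higher, with a q-value of 9.97e-13.

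Snord89, also alone (chr1:39605591-39605685, mm9), measured 47.1 and 137.0 FPKM. Its 94 bases had no microRNA row of the same length to read a step from. The siNC step was interpolated between a single row of 93 bases and a single row of 100 bases, each assumed to hold 1 fragment. Those rows are listed at 0 in siLinc-Yy1, so its step was taken as the siNC step times the 1.519 above. On that assumption the values stand for about 58 and 111 fragments, with an FPKM ratio of 2.91 and a counting interval (95%, exact binomial) of 2.098 to 4.07. The authors' deposited table lists a q-value of 3.94e-05 for it. For both of these members alone at their locus, the interval of counting error lies above 1 and also above the 1.519 of equal fragments.

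The third member called in the authors' deposited table was Snord49b, with a q-value of 0.0255. All 3 were called higher, among 56 Snord rows of status OK, while 1.29% of the 14366 rows of that status were called higher. Snord49b lies with Snord49a and Snord65 in the noncoding gene 2410006H16Rik (locus chr11:62416378-62418308, mm9). Snord49a and Snord49b guide methylation of 28S and Snord65 of 18S ribosomal RNA. Snord49b measured 719.0 and 2490 FPKM. Snord49a measured 445.7 and 1478 FPKM and Snord65 125.0 and 314.4 FPKM. Their ratios were 3.46, 3.32 and 2.51, while that of the spliced host was 1.14 (76.2 and 87.1 FPKM). The 3 snoRNAs thus had ratios above that of their host.

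Ribosomal protein genes held 16 of the members past the filter, of which 13 were at least 2-fold higher, with a median log2 ratio of 1.49. Their 10 host rows had a median of 0.83, and 3 of them were at least 2-fold higher. The Rpl13a cluster (chr7:52380932-52384115, mm9) holds the snoRNAs U32a to U35a, which guide methylation of 18S and 28S ribosomal RNA and are also known from the response of cells, myoblasts among them, to lipid overload. Snord32a measured 252.3 and 887.4 FPKM. Snord34 measured 108.3 and 260.7 FPKM, Snord35a 57.7 and 138.8 FPKM and Snord33 26.3 and 59.1 FPKM. The ratio of Snord32a, 3.52, stood above those of its 3 neighbours (2.24 to 2.41), and all 4 stood above Rpl13a itself at 1.62 (323.4 and 525.3 FPKM).

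In Rpl23a (694.3 and 1378 FPKM), Snord42a measured 35.8 and 214.6 FPKM. Its log2 ratio of 2.55 was the highest of the members past the filter on the scale with 1 added, ahead of Snord73a (2.55 after rounding). Snord42b, which like Snord42a guides methylation of 18S ribosomal RNA, stood at 18.5 and 65.0 FPKM. Snord4a stood at 2.21 and 10.0 FPKM, 2.99 times the ratio at equal fragments, which 1 fragment against 3 would give. Snord73a in Rps3a stood at 4.94 and 33.6 FPKM. Its siNC value is not far above the 3.77 FPKM of 1 fragment at 73 bases, so its ratio may rest on very few fragments. Rnu73b at the same locus, which the name rule leaves out, went the other way, with 14.6 and 6.34 FPKM. Snord100 in Rps12 measured 375.1 and 1170 FPKM, beside 681.9 and 1365 FPKM of its host. Snord83b in Rpl3 measured 110.5 and 309.6 FPKM. In Rps3, Snord15b measured 29.8 and 86.1 FPKM and Snord15a 9.32 and 23.0 FPKM.

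Not all members in ribosomal protein genes passed the size rule. Snord16a in Rpl4 stood at 34.1 and 62.0 FPKM, the same ratio of 1.82 as its host. Snord58b in Rpl17 was lower, with 53.8 and 30.4 FPKM, while Rpl17 had a ratio of 2.03. Ratios in this host class thus ranged from below 1 to the highest of all members.

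Noncoding hosts had 11 members past the filter, of which 7 were at least 2-fold higher, with a median log2 ratio of 1.32. Their 8 host rows had a median of 0.01 and none was 2-fold higher. Snord47 in Gas5, a noncoding gene whose spliced RNA accumulates in growth arrest, measured 59.1 and 201.2 FPKM. Gas5 itself stood at 19.96 and 31.2 FPKM, and it is 1 of the hosts called higher in the authors' deposited table, with a q-value of 0.0262. Snord12 in 1500012F01Rik (now Zfas1) measured 197.2 and 536.1 FPKM, and the host 46.5 and 53.5 FPKM. Snord99 in Snhg12 measured 130.1 and 341.1 FPKM, and the host 26.3 and 28.1 FPKM. Snord22 (U22), which acts in processing of the 18S precursor and not in methylation, measured 23.4 and 53.5 FPKM, while its host Snhg1 stood at 27.96 and 22.8 FPKM. Snord87 in Snhg6 had 10.8 and 16.3 FPKM, a ratio of 0.999 in fragments. Snord123 had 0.996 and 1.51 FPKM, also the ratio at equal fragments. Snord87 and Snord123 are among the rows from which that ratio was read. In 1810032O08Rik (now Snhg16), Snord1b had 21.0 and 33.1 FPKM, and Snord1c had 15.6 and 18.1 FPKM. For Snord1b the ratio in fragments was 1.04 and for Snord1c 0.762, so none of these 4 stood much above equal fragments.

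Protein genes outside the ribosome held 16 members past the filter, of which 9 were at least 2-fold higher, with a median log2 ratio of 1.16, while their 13 host rows had a median of 0.11. In Gnb2l1 (now Rack1), a ribosome-bound scaffold, Snord96a, a guide for ribosomal RNA, measured 26.5 and 87.4 FPKM. Snord95 in the same gene measured 46.9 and 108.4 FPKM. Genes of nucleolar proteins host several members. In Nop56, a core protein of the C/D particle, Snord110 measured 44.6 and 101.0 FPKM and Snord57 127.7 and 188.0 FPKM. In nucleolin (Ncl) Snord82 measured 49.4 and 112.2 FPKM, and in Gnl3 Snord69 measured 58.0 and 141.4 FPKM while the host stood at 42.2 FPKM in both. Snord57 had a ratio of 1.47, which is 0.970 in fragments, beside 2.27 for Snord110 of the same host.

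Among the other protein hosts, Snord66 in the translation factor gene Eif4g1 measured 14.4 and 65.4 FPKM. Snord23 in Gltscr2 (now Nop53) stood at 1.39 and 8.46 FPKM and Snord111 in Sf3b3 at 3.15 and 14.3 FPKM. These are 4.00 and 2.99 times the ratio at equal fragments, as 1 against 4 and 1 against 3 fragments would give. Snord17 in Snx5 stood at 6.88 and 13.2 FPKM. Snord53 and Snord92 in Wdr43, itself part of the small subunit processome, had 7.40 and 15.0 FPKM and 1.20 and 1.83 FPKM in turn. Snord88c stood at 1.16 and 1.76 FPKM, like Snord92 at equal fragments, and both are among the rows from which that ratio was read. Snord71 in Ap1g1 was the other lower member, with 9.44 and 4.76 FPKM. Its ratio is 0.332 of that at equal fragments, which 3 fragments against 1 would give. The lowest and several of the highest ratios thus sit on rows of few fragments.

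Snord67, Snord7 and Snord8 guide methylation of the spliceosomal RNA U6. Snord67 in Ckap5 measured 9.33 and 27.2 FPKM. Snord7 measured 16.3 and 37.0 FPKM, with status LOWDATA, and Snord8 in Chd8 5.57 and 11.6 FPKM. On log2(FPKM + 1) Snord67 (1.45) and Snord7 (1.14) passed the size rule and Snord8 (0.94) did not.

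Each member was then set beside its own host row. Of 43 members with a host and a fold, 40 had a higher FPKM ratio than the host, and the median log2 of the member's ratio over the host's was 0.91. The 31 host rows had a median log2 ratio of 0.23, with a range of -0.30 to 1.02, and 3 were at least 2-fold higher. Snord58b in Rpl17 and Snord71 in Ap1g1 were among those with a ratio below that of the host. The most frequent ratio was 1.519 in short rows and 1.395 in the longer odorant receptor rows. Neither is taken out of these values, and the part of their difference in the gap was not tested.

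**Figure D3:**
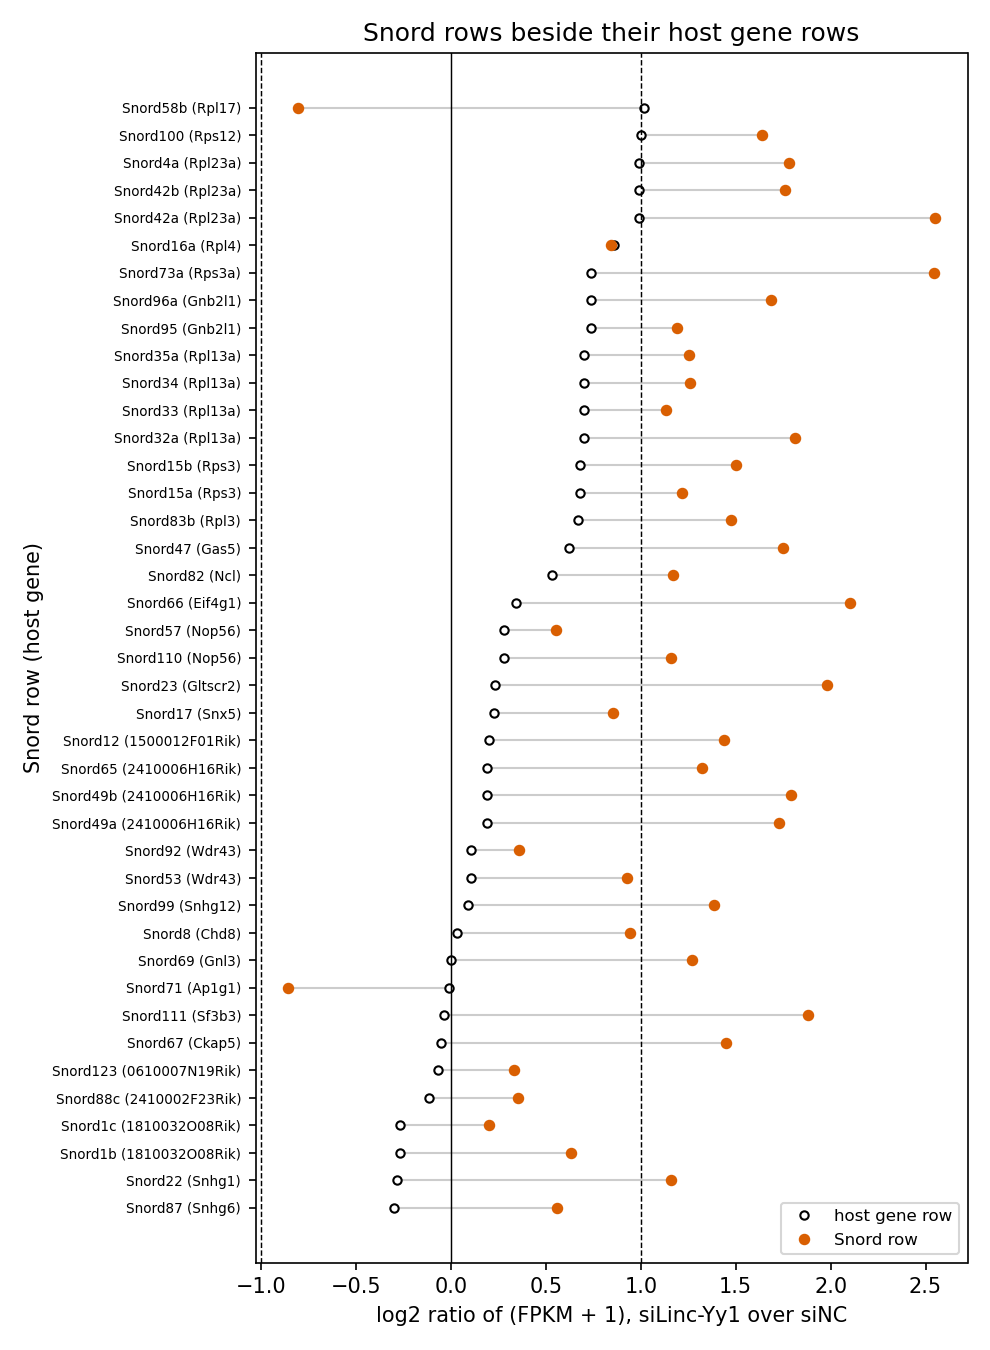
Log2 ratio of (FPKM + 1), siLinc-Yy1 over siNC, for 41 Snord rows (filled) and their host gene rows (open), joined by a line and ordered by the host's ratio, with dashed lines at 2-fold. The filled points lie to the right of the open ones except for Snord58b, Snord71 and Snord16a, which nearly coincides with Rpl4, and Snord58b in Rpl17 lies far to the left of its host.

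Members listed at 0 in 1 library were left unresolved. In siNC the rows at 0 were Snord68, which stood at 18.6 FPKM in siLinc-Yy1, and Snord52, which stood at 6.73 FPKM. In siLinc-Yy1 they were Snord45b (17.9 FPKM in siNC), Snord2 (9.87 FPKM), Snord61 (7.19 FPKM), Snord85 (5.91 FPKM), and Snord72 and Snord91a (both 4.14 FPKM). Their host genes were measured in both libraries: Rpl13 of Snord68 stood at 446.2 and 695.7 FPKM and Rabggtb of Snord45b at 48.1 and 48.7 FPKM. A single fragment was worth 3.77 FPKM at 73 bases in siNC, so the lower of these values may rest on very few fragments. Listed at 0 in both libraries were 12 members, among them Snord11 and Snord70 in Nop58, Snord37 in Eef2 and Snord43 in Rpl3, though these hosts ranged from 68.2 FPKM (Nop58) to 543.9 FPKM (Eef2) in siNC.

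The imprinted members were near the floor. Snord116, Snord116l1 and Snord116l2 of the Snrpn region on chromosome 7 are near-identical copies, and all 3 rows carry the same values, 0.650 and 0.141 FPKM. With identical values, no copy can be read on its own. Snord64 of the same region was listed at 0 in both.

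The mRNAs of the C/D pathway's proteins showed no such difference in size. The list held core proteins, assembly factors, maturation enzymes, U3 particle proteins and partners. The partners included Dkc1, a protein of the H/ACA class of snoRNAs, for contrast. Of the whole list, 36 genes were measured. Their median log2 ratio was 0.00, with 18 higher and 18 lower, beside -0.02 for all rows. None of the 36 was at least 2-fold higher or lower. Of all 11722 rows past the filter 1.3% were higher and 0.0427% lower, so a count of 0 lies near that share. Fibrillarin (Fbl), the methyltransferase, measured 125.8 and 152.2 FPKM. The other core proteins were Nop56 (106.9 and 130.1 FPKM), Nop58 (68.2 and 75.02 FPKM) and Nhp2l1 (120.4 and 137.2 FPKM). The largest ratios were those of the chaperone Hsp90ab1 (586.7 and 1155 FPKM), the nucleolar proteins Npm1 (296.5 and 441.0 FPKM) and Ncl (73.2 and 106.1 FPKM). None of the 36 was called in the authors' deposited table, where 1.29% of the 14366 rows of status OK were called higher.

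The other classes of short RNA rows differed in how far their ratios lay from 1. H/ACA snoRNAs, which guide pseudouridylation, had 31 Snora rows past the filter, of which 17 were at least 2-fold higher and 0 lower, with a median log2 ratio of 1.23. Of 6 Scarna rows, the Cajal body RNAs, 5 were at least 2-fold higher. Of 66 microRNA rows 12 were (18.2%) and 2 were lower, with a median of 0.35 on log2(FPKM + 1). The log2 ratio of 0.60 read as equal fragments has no 1 added, so this median cannot be set against it. With 1 added, Mir320, at equal fragments, stood at 0.37. In all, 44 of the 66 had a ratio above 1, and 483 of 615 microRNA rows were listed at 0 in both libraries. The shares were 69.6% of the Snord and 54.8% of the Snora rows, and 0.743% of the 11573 rows of no such class. With 1 library per condition, the difference between these classes was not tested. H/ACA rows at the members' own loci went the same way for the most part: Snora33 beside Snord100 stood at 47.7 and 129.6 FPKM, and beside Snord99 Snora44 stood at 7.94 and 42.7 FPKM, Snora61 at 21.6 and 43.5 FPKM and Snora16a at 8.54 and 24.7 FPKM. Snora75 beside Snord82 stood at 2.70 and 2.73 FPKM. Of other RNAs without a poly(A) tail only a few rows, chosen after their values were seen, are given. Rmrp, of a ribonuclease, measured 163.4 and 701.9 FPKM, and the minor spliceosome RNAs Rnu11 and Rnu12 67.1 and 285.2 FPKM and 153.8 and 874.6 FPKM. How much tail-less RNA passed the poly(A) selection in either library was not measured, and its part in the members' ratios was not tested.

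**Figure D4:**
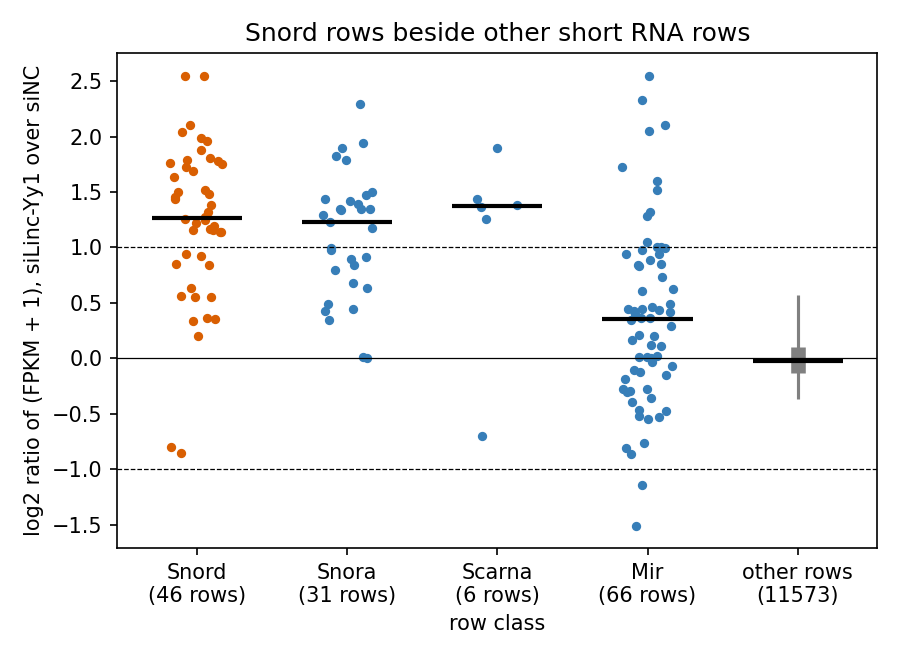
Log2 ratio of (FPKM + 1), siLinc-Yy1 over siNC, for the Snord, Snora, Scarna and Mir rows past the filter, 1 point a row spread sideways for legibility, with black bars at the medians and dashed lines at 2-fold. For the other rows the thick bar spans the central 50% and the thin line the central 95%. The medians of Snord (1.27) and Snora (1.23) rows stand well above that of the other rows (-0.02), and that of Mir rows (0.35) lies between.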

How the data were processed

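Gene-level values of the siNC and siLinc-Yy1 libraries were read from 1 table; a second deposited copy was identical. The FPKM values were made by the authors, for which mm9, Cuffdiff 2.0.4, TopHat2 2.0.4 and Cufflinks 2.1.1 are listed per the submitters' processing notes, while the labels give poly(A) selection. The p-values and q-values are the authors' Cuffdiff output as deposited, and are quoted only as theirs. The depth of the libraries is unknown here.

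The members and gene lists were chosen with earlier results of these data known. Ratios were taken on log2(FPKM + 1) for rows above 0 in both libraries with a mean of at least 1 FPKM and a status other than FAIL or HIDATA. A row counted as higher or lower at 2-fold. The size rule was tested on simulated data. Hosts were assigned from the shared locus and RefSeq neighbours (GRCm38.p6), with no coordinates taken across builds. Members above 0 in both libraries could be named; those given in full were the 12 highest by mean FPKM, the 8 highest and 8 lowest ratios, those called by the authors, those at 0 in 1 library and those alone at their locus. Of the C/D protein list, the 4 core proteins and the 3 largest ratios were named. The step of single fragments was read from microRNA rows after the data were seen. Counting intervals are exact binomial (95%) and cover counting error only. Alternatives covered the pseudocount, filter, zeros, scaling, status and fold. Python 3.11.15, pandas 2.3.3, numpy 2.4.6 and scipy 1.17.1 were used. Values of some members and hosts are not reported here, although the counts and medians include them.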

Additional observations from a re-analysis of the deposited data

How the results depend on the processing

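As reported, 32 Snord rows were at least 2-fold higher, 0 lower, and the median log2 ratio was 1.27. A pseudocount of 5 FPKM gave a median of 1.15. Keeping exact zeros as values gave 34 higher and 6 lower, against 164 and 20 of all rows. Rescaling to equal summed FPKM gave 21 higher, 2 lower and a median of 0.94, with the median of all rows at -0.31 and 80 rows of the table higher against 23 lower. Removing the level-dependent trend of all rows (a running median along mean FPKM) gave 27 higher, 0 lower and a median of 1.03. Of all rows, 132 were then higher and 6 lower. A 1.5-fold rule gave 37 higher and 2 lower, against 371 and 44 of all rows. The authors' own calls gave 3 higher and 0 lower. Of 2 alternatives chosen after seeing the data, dividing siLinc-Yy1 by the excess of the short-row step over the odorant receptor step gave a median of 1.14, and dividing by the whole step gave 15 higher, 2 lower and a median of 0.67, with the median of all rows at -0.55 and 43 rows of the table higher against 80 lower. Under all 3 planned scalings, 17 of the 32 stayed at least 2-fold higher. The cause of these shifts was not tested beyond the construction of each setting. No paired analysis was possible because each condition has 1 library, and for the same reason no library could be left out. Many members rest on few fragments, so single ratios are imprecise.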
